A study of Homo sapiens with 8 samples.

Results

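Casein kinase 2 (CK2) is encoded by CSNK2A1, CSNK2A2 and CSNK2B, and the mRNAs of these 3 subunits were followed through 8 RNA libraries. The members were the rows whose gene symbol equalled one of these names, 3 of the 57978 genes listed in both deposited tables. HEK293T is a human embryonic kidney line carrying the SV40 large T antigen. All cells expressed eIF3d, a subunit of translation initiation factor eIF3, carrying an HA tag and a site that TEV protease cuts. They spent 48 h in complete medium, which is DMEM plus 10% fetal bovine serum, or in DMEM without glucose and with 10% dialyzed serum. After ultraviolet crosslinking at 254 nm, eIF3d was caught on anti-HA beads and freed from eIF3 by TEV protease. Polyadenylated RNA of the immunoprecipitate (IP) and of the input was sequenced in 2 libraries per medium and fraction, so that there were 4 groups. Replicates carry numbers in the labels, which do not name separate cultures, so p-values measure only the spread among libraries, part or all of which may be technical. An IP from untagged cells was not analysed here, and the IP values therefore have no background.

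CK2 is a serine/threonine kinase that needs no activating signal and prefers sites followed by acidic residues. Its holoenzyme carries catalytic subunits, alpha from CSNK2A1 or alpha prime from CSNK2A2, on a dimer of the regulatory beta subunit from CSNK2B, which stabilises the complex and guides the choice of substrate. CK2 is known to phosphorylate eIF3d, and this phosphorylation is known to restrain the binding of eIF3d to the mRNA cap. The question here was how the mRNAs of the kinase's own subunits were represented with eIF3d and in the input, with and without glucose.

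Positions are those of GRCh38 in GENCODE release 29. CSNK2A1 (ENSG00000101266) lies on chromosome 20 at 472498 to 543835, minus strand, and its exons, taken over 48 transcripts, cover 29523 bases. CSNK2A2 (ENSG00000070770) lies on chromosome 16 at 58157907 to 58197920, minus strand, with 6905 exon bases. CSNK2B (ENSG00000204435) lies on chromosome 6 at 31665236 to 31670343, plus strand, with 2933 exon bases. The exon length of CSNK2A1 stood at the 99.9th percentile of the 10100 genes tested, while those of CSNK2A2 and CSNK2B stood at the 77.7th and 34.3rd. The principal transcripts are much shorter, at 4390, 1701 and 948 bases, and carry open reading frames of 391, 350 and 215 codons.

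Another gene bears on CSNK2A1. CSNK2A3 (ENSG00000254598, chromosome 11, 11351942 to 11353357, minus strand) is a copy of CSNK2A1 in 1 exon. Its coding sequence of 1176 bases differs from that of CSNK2A1 at 8 bases, an identity of 99.3%, with an identical run of 650 bases. CSNK2A2 aligned with CSNK2A1 over 1050 coding bases at an identity of 76.5%, and its longest identical run was 21 bases. The stretches below, from the GENCODE transcripts, illustrate that reads of CSNK2A1 and CSNK2A3 could be confused and those of CSNK2A2 less easily. They were chosen where CSNK2A1 and CSNK2A3 differ most, and are not typical of the whole coding sequences. Each is 60 coding bases 5′ to 3′ (bases 649 to 708 of CSNK2A1 and CSNK2A3 and 652 to 711 of CSNK2A2, counted from the A of the start codon), with capitals where a base differs from CSNK2A1, at 2 places in CSNK2A3 and 9 in CSNK2A2.

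CSNK2A1: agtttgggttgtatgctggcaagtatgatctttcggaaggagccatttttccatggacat
CSNK2A3: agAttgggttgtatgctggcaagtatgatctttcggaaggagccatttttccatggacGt
CSNK2A2: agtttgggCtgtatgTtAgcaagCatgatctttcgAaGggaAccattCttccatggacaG

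How reads with several places in the genome were treated is not given in the sources used here. CSNK2A3 held 12 to 117 reads per library against 240 to 1422 for CSNK2A1, or 1.49% to 9.69% of the CSNK2A1 reads as counted. The share was 7.03% to 9.69% in the 4 complete libraries, 7.08% and 3.55% in the glucose-free inputs and 1.49% and 2.23% in the glucose-free IPs. CSNK2B shared exon bases with 3 other genes: 675 with AL662899.2 and 177 with LY6G5B on its own strand, and 343 with GPANK1 on the opposite strand. Reads there could be split or unassigned, since the counter and its use of strand are not given either. The exons of CSNK2A1 and CSNK2A2 overlapped no other gene.

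Whole reads recovered from the deposited values summed to 31708998 and 19490714 for the inputs and 24596456 and 21216047 for the IPs of complete medium. Without glucose they summed to 33996875 and 43400905 for the inputs and to 8656921 and 12034186 for the IPs. The mitochondrial rRNAs took 26.8% to 50.7% of these reads in the inputs and 0.399% to 10.6% in the IPs, and complete IP replicate 2 stood apart with 10.6% against 1.26% in replicate 1. All 9 markers fixed for the HEK293T line reached 1 RPKM in at least 1 library, and 4 did so in all. Of 19 markers of other cell types 4 reached 1 RPKM, and HBA1 was highest (10.0 RPKM, complete input replicate 1). Their summed level was 20.04 and 12.5 RPKM in the complete inputs and 4.50 to 11.3 elsewhere, and its part in the results below was not tested.

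Levels are given in RPKM, which divides a gene's reads by its exon length and by the total of the library. In the inputs the regulatory subunit had the highest level and CSNK2A1 the lowest, and in the IPs CSNK2A2 stood above CSNK2B. CSNK2B, the regulatory beta subunit, had 8.91 and 10.99 RPKM in input and 4.09 and 9.06 in the IP of complete medium, against 3.58 and 3.91 in the input and 8.27 and 10.2 in the IP without glucose. Its complete inputs and IPs overlapped narrowly, with IP replicate 2 just above the lower input, and its glucose-free inputs were the lowest of the 4 groups. These values rested on 210 to 829 reads per library.

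CSNK2A2, the alpha prime catalytic subunit, had 1.85 and 2.79 RPKM in input and 9.76 and 13.4 in the IP of complete medium, against 1.54 and 1.77 in the input and 16.3 and 19.7 in the IP without glucose. All 4 IPs lay above all 4 inputs, and the glucose-free IPs were the highest. The reads behind these values numbered 362 to 1957 per library. CSNK2A1, the alpha catalytic subunit, had 0.430 and 0.850 RPKM in input and 1.66 and 2.27 in the IP of complete medium, against 0.239 and 0.264 in the input and 3.42 and 3.29 in the IP without glucose. Its order of groups was that of CSNK2A2, with no overlap between any pair of groups. The median RPKM of all tested genes had this order too, also without overlap. It was 0.833 and 0.891 in glucose-free inputs, 1.23 and 1.75 in complete inputs, 4.87 and 4.55 in complete IPs and 5.60 and 6.49 in glucose-free IPs. Once libraries were scaled to this median, CSNK2A1 overlapped between input and IP in complete medium, and CSNK2A2 between the IPs of the media.

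**Figure D1:**
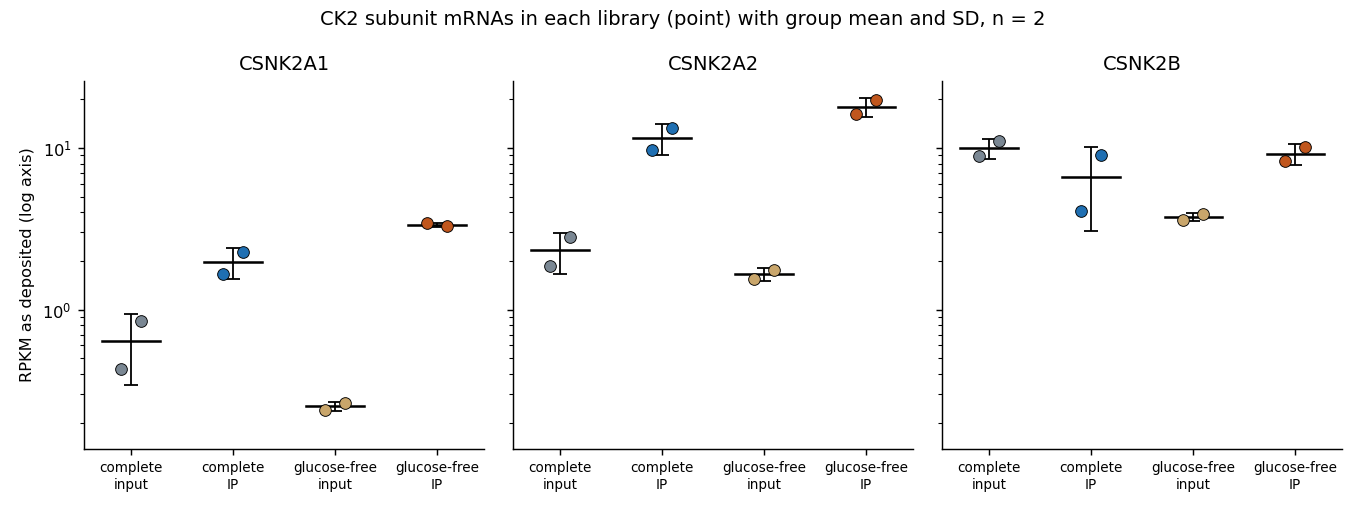
RPKM as deposited (log axis) of the 3 CK2 subunit mRNAs in each of the 8 libraries (points), with the mean (line) and SD (bars) of each group of 2. CSNK2A1 and CSNK2A2 lay higher in every IP than in every input, while CSNK2B averaged 9.95 RPKM in complete inputs and 6.58 in complete IPs, against 3.75 and 9.22 without glucose. The median of all tested genes also lay higher in every IP (4.55 to 6.49 RPKM) than in every input (0.833 to 1.75).

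In the complete inputs the means were 9.95 ± 1.46 RPKM for CSNK2B, 2.32 ± 0.664 for CSNK2A2 and 0.640 ± 0.297 for CSNK2A1 (SD, n = 2). In the glucose-free inputs they were 3.75 ± 0.235, 1.66 ± 0.160 and 0.251 ± 0.0174 in the same order. Both gaps in the order exceeded the spread between libraries in each medium. In the complete IPs CSNK2A2 had 11.6 ± 2.55, CSNK2B 6.58 ± 3.52 and CSNK2A1 1.97 ± 0.429 RPKM. The gap between CSNK2A2 and CSNK2B there was within the sum of their SDs. In the glucose-free IPs the means were 18.0 ± 2.45, 9.22 ± 1.34 and 3.36 ± 0.0962, and the gaps exceeded the spread. The low level of CSNK2A1 depends on its long exon union. Per base of the principal transcript, a length chosen after seeing the data, it had 4.31 ± 1.99 in the complete inputs against 9.43 ± 2.70 for CSNK2A2 and 30.8 ± 4.53 for CSNK2B. The order was unchanged, and in the complete IPs it was again CSNK2A2 (46.9 ± 10.3), CSNK2B (20.3 ± 10.9) and CSNK2A1 (13.2 ± 2.89). Among the 10100 tested genes CSNK2B stood at the 77.0th to 86.3rd percentile of RPKM in the inputs and at the 44.0th to 71.7th in the IPs. CSNK2A2 stood at the 61.2nd to 64.7th and the 71.8th to 81.0th, and CSNK2A1 at the 19.9th to 28.8th and the 16.6th to 32.7th.

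The ratio of a pair of subunit mRNAs within a library does not depend on a scaling factor applied to a whole library, though it does depend on corrections that differ by gene, such as those for length and GC. On this measure the catalytic subunit mRNAs stood higher against the regulatory one in the IP than in the input. CSNK2A2 stood at 0.208 and 0.254 of the CSNK2B level in the inputs of complete medium and at 2.39 and 1.47 of it in the IPs. Without glucose it stood at 0.431 and 0.452 in the inputs and at 1.97 and 1.94 in the IPs. CSNK2B therefore exceeded CSNK2A2 in all 4 inputs and was exceeded by it in all 4 IPs. The mean log2 ratio of CSNK2A2 to CSNK2B rose from -2.12 ± 0.205 to 0.91 ± 0.491 in complete medium, an 8.15-fold shift, and from -1.18 ± 0.0493 to 0.97 ± 0.0140 without glucose, a 4.43-fold shift (SD, n = 2).

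CSNK2A1 also stood higher against CSNK2B in the IP, though in complete medium not with length and GC trends removed. In complete medium its level was 0.0483 and 0.0774 of that of CSNK2B in the inputs and 0.407 and 0.2505 in the IPs, and 0.0668 and 0.0674 against 0.414 and 0.323 without glucose. Inputs and IPs did not overlap in either medium. For this ratio and that of CSNK2A2 to CSNK2B, how many other gene pairs separate likewise was not computed. In the limma fits described below, 59.9% and 59.8% of all tested genes differed between IP and input at an adjusted p under 0.05. The mean log2 ratio of CSNK2A1 to CSNK2B went from -4.03 ± 0.481 to -1.65 ± 0.495 in complete medium (5.22-fold) and from -3.90 ± 0.00973 to -1.45 ± 0.252 without glucose (5.45-fold). The catalytic subunits shifted less against each other in RPKM as deposited. CSNK2A1 to CSNK2A2 had mean log2 ratios of -1.91 ± 0.276 and -2.55 ± 0.00337 in the complete input and IP and of -2.72 ± 0.0396 and -2.42 ± 0.238 without glucose, differences of -0.64 and 0.30 with opposite signs.

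An exact two-sided permutation test of the IP minus input difference, with IP and input exchanged within each medium (36 arrangements), gave p = 0.0556 for CSNK2A1 to CSNK2B and for CSNK2A2 to CSNK2B. That is the smallest p this design allows, so no ratio could pass 0.05. The difference averaged over the media was 2.42 for CSNK2A1 to CSNK2B and 2.59 for CSNK2A2 to CSNK2B on the log2 scale. For CSNK2A1 to CSNK2A2 it was -0.17 (exact p = 0.556). These 3 ratios were the ones computed. Removal of each library's trends on gene length and GC from the scaled log2(RPKM + 1) values, an alternative chosen after seeing the data, changed them. CSNK2A1 to CSNK2B then had differences of -0.14 in complete medium, where inputs and IPs overlapped, and 0.65 without glucose (mean 0.26, exact p = 0.444). CSNK2A2 to CSNK2B kept its direction at 1.67 and 1.42, and CSNK2A1 to CSNK2A2 had -1.81 and -0.77. Without that removal the values on this scale were 2.05 and 1.76 for CSNK2A1 to CSNK2B and 2.58 and 1.84 for CSNK2A2 to CSNK2B. Without complete IP replicate 2, the library rich in mitochondrial rRNA, the differences for the first pair of ratios were 2.59 and 2.76, and without any 1 library they were 2.24 to 2.59 and 2.41 to 2.76. Expressed as shares of the summed RPKM of the 3 mRNAs, CSNK2B made up 77.3% in the input and 31.5% in the IP of complete medium, and 66.3% and 30.1% without glucose. CSNK2A2 made up 17.8% and 58.5%, and 29.3% and 58.8%.

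**Figure D2:**
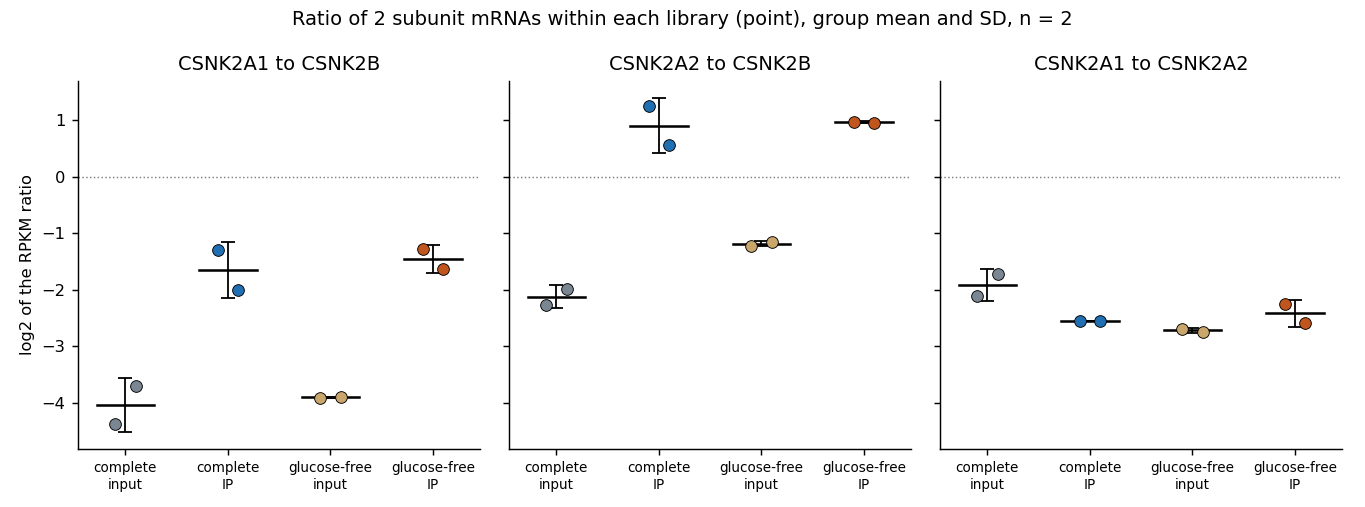
Log2 ratio of the RPKM of a pair of CK2 subunit mRNAs within each library (points), with the mean (line) and SD (bars) of each group of 2 and a dotted line at equal levels. CSNK2A1 and CSNK2A2 stood 4.43-fold to 8.15-fold higher against CSNK2B in the IP than in the input of each medium, and CSNK2A2 crossed from below to above the CSNK2B level. With length and GC trends removed the log2 difference of CSNK2A1 to CSNK2B was -0.14 in complete medium and 0.65 without glucose.

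Changes against all other genes require a common scale. Each library's RPKM was scaled to 1 median over the tested genes, and log2(scaled RPKM + 1) was fitted with limma, so changes are relative to the median gene and understate those of low genes. Scaling took out a log2 shift of 1.68 between IP and input in complete medium and of 2.81 without glucose. Genes passed at an adjusted p under 0.05. All 3 members entered the test, CSNK2A1 through its IP values, since its 4 inputs lay under the mean of 1 RPKM that was required over all libraries. In a bulk library fewer cells with an mRNA and fewer copies per cell cannot be told apart.

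In complete medium CSNK2B fell in the IP and neither catalytic subunit passed. CSNK2B changed by -2.05 ± 0.31 (SE) on the log2 scale, 4.14-fold lower than input relative to the median gene (limma adjusted p = 0.000556), at the 11.4th percentile of all tested genes. CSNK2A2 had 0.53 ± 0.23 (limma adjusted p = 0.0692), with a 95% interval of 0.02 to 1.05. CSNK2A1 stood at 0.0013 ± 0.16 (limma adjusted p = 0.997) with an interval of -0.37 to 0.37. Of the 10100 genes 59.9% passed in this comparison, 30% higher and 29.9% lower, so a call here is common. Without complete IP replicate 2 CSNK2B had -2.52, CSNK2A2 0.30 and CSNK2A1 -0.14. Without complete IP replicate 1 CSNK2A2 passed (0.77, limma adjusted p = 0.0157).

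Without glucose CSNK2B fell again relative to the median gene, though its deposited RPKM was higher in the IP. CSNK2A1, which entered the test only through its IP values, passed as higher, a call lost without the filter on low values (limma adjusted p = 0.101), when values were centred after the log or quantile-normalized, and with length and GC trends removed. CSNK2B changed by -1.30 ± 0.31, 2.46-fold lower (limma adjusted p = 0.00586), at the 21.4th percentile. CSNK2A1 changed by 0.46 ± 0.16, 1.38-fold higher (limma adjusted p = 0.0360), with an interval of 0.09 to 0.84, and CSNK2A2 by 0.54 ± 0.23 (limma adjusted p = 0.0666). In this comparison 59.8% of all genes passed, 27.6% higher and 32.2% lower. The CSNK2A1 call was lost without any 1 of the 4 glucose-free libraries (0.39 to 0.54, limma adjusted p = 0.0836 to 0.193). The CSNK2A2 value passed when a complete library was left out (adjusted p = 0.0252 to 0.0464) and when the 4 glucose-free libraries were fitted alone (0.54, limma adjusted p = 0.00222). On recovered reads, limma-voom, which called 59.3% and 60.3% of all genes in these comparisons, gave the same calls: CSNK2B -2.44 and -1.52 in complete and glucose-free medium (adjusted p = 0.000299 and 0.00561), CSNK2A1 -0.04 and 0.93 (0.917 and 0.0231) and CSNK2A2 0.60 and 0.62 (0.0940 and 0.0786).

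Directions against other genes depended on the scale. With RPKM as deposited CSNK2B had -0.61 in complete medium (limma adjusted p = 0.127) and turned to 1.10 without glucose (adjusted p = 0.00990), while the median gene had 1.11 and 1.58. CSNK2A2 then rose by 1.92 and 2.83 (adjusted p = 0.000101 and 4.42e-06), and CSNK2A1 by 0.86 in complete medium (adjusted p = 0.00282). Scaling to the summed protein-coding RPKM gave the same signs, with CSNK2B at -0.63 and 0.74, neither past the threshold. Removal of each library's trends on gene length and GC moved CSNK2A1, the member with the extreme exon length, to -1.64 in complete medium (limma adjusted p = 4.58e-05) and to -0.20 without glucose (adjusted p = 0.212).

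The IP to input change was then compared between media. No member passed: glucose-free minus complete was 0.46 ± 0.23 for CSNK2A1 (limma adjusted p = 0.233), 0.0056 ± 0.32 for CSNK2A2 (adjusted p = 0.994) and 0.75 ± 0.43 for CSNK2B (adjusted p = 0.294). The intervals, -0.06 to 0.99, -0.72 to 0.73 and -0.24 to 1.74, do not show that the members acted alike in both media. None of these had an unadjusted p under 0.05, and by limma-voom again none passed after adjustment. Among all genes 5.03% passed, 1.95% higher and 3.08% lower. CSNK2A1 passed as higher once length and GC trends were removed (1.44, limma adjusted p = 0.00813). With RPKM as deposited CSNK2A1 (0.94, adjusted p = 0.0335) and CSNK2B (1.71, adjusted p = 0.0231) passed, on a scale where the median gene had 0.68.

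**Figure D3:**
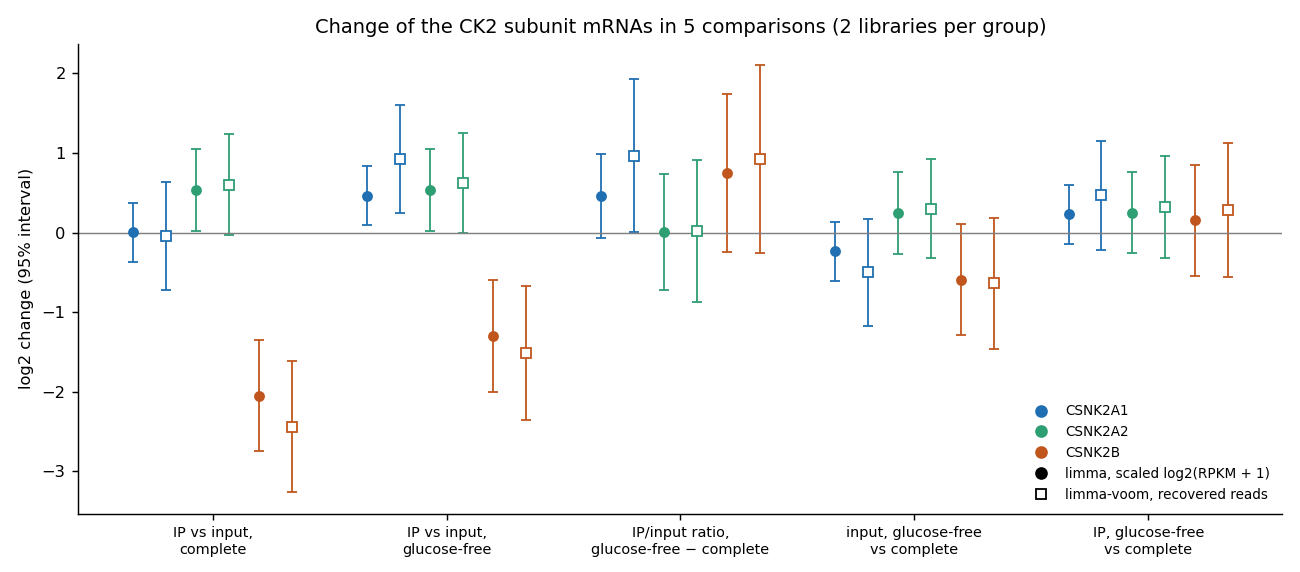
Log2 change and 95% interval of each CK2 subunit mRNA in 5 comparisons, from limma on scaled log2(RPKM + 1) (filled circles) and limma-voom on recovered reads (open squares). CSNK2B lay well below 0 in IP against input in each medium (-2.05 and -1.30), though the second turned to 1.10 with RPKM as deposited, while the intervals between media included 0 in the first fit. Intervals are not adjusted for the number of genes, and CSNK2A2 missed the adjusted threshold although its intervals in IP against input just cleared 0 there.

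The mRNA levels themselves were compared between media within each fraction. In the inputs no member passed: glucose-free against complete was -0.24 ± 0.16 for CSNK2A1 (limma adjusted p = 0.285), 0.25 ± 0.23 for CSNK2A2 (adjusted p = 0.418) and -0.59 ± 0.31 for CSNK2B (adjusted p = 0.162), with 34% of all genes past the threshold, 18.4% higher and 15.6% lower. As deposited the input RPKM of CSNK2B was 2.66-fold lower, that of CSNK2A1 2.55-fold lower and that of CSNK2A2 was 0.712 of its complete-medium level without glucose. The scaling removed a shift of -0.77 here, and with RPKM as deposited CSNK2B passed as lower (-1.20, limma adjusted p = 0.0342) and CSNK2A2 turned to -0.31 (adjusted p = 0.457). CSNK2B also passed as lower without either complete IP (-0.59, adjusted p = 0.0362 and 0.0378). Within the inputs CSNK2A2 gained on CSNK2B by 0.94 (log2 ratio) without glucose and the log2 ratio of CSNK2A1 to CSNK2A2 fell by 0.81. The libraries of the media did not overlap in those ratios, though how many other gene pairs separate likewise was not computed. With length and GC trends removed the input changes of CSNK2A1, CSNK2A2 and CSNK2B were -0.15, 0.09 and -0.60. Centred after the log they were 0.03, 0.10 and -0.79, so the catalytic subunits lay closer together on both scales.

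In the IPs no member passed either: 0.23 ± 0.16 for CSNK2A1 (limma adjusted p = 0.290), 0.25 ± 0.23 for CSNK2A2 (adjusted p = 0.395) and 0.16 ± 0.31 for CSNK2B (adjusted p = 0.704), while 41.2% of all genes did, 21.1% higher and 20.1% lower. Their 95% intervals ran from -0.15 to 0.60, -0.26 to 0.76 and -0.54 to 0.86. With length and GC trends removed CSNK2A1 (1.30, limma adjusted p = 0.000705) and CSNK2A2 (0.49, adjusted p = 0.0411) passed as higher. CSNK2A3, the copy of CSNK2A1, was lower without glucose in the IP (-0.85 ± 0.19, limma adjusted p = 0.00864) and in the input (-0.57 ± 0.19, adjusted p = 0.0456). CSNK2A3 entered the test through its complete IPs (3.36 and 3.33 RPKM, against 0.195 to 1.53 elsewhere). The IP call is therefore made against the group that admitted CSNK2A3. Its values rested on as few as 12 reads, and the input call was lost by limma-voom (adjusted p = 0.111), as deposited (adjusted p = 0.0638), quantile-normalized (adjusted p = 0.150), centred after the log (adjusted p = 0.383) and on the protein-coding sum (adjusted p = 0.0554). In IP against input it did not pass in the limma fit on scaled RPKM (0.06, adjusted p = 0.818, and -0.22, adjusted p = 0.344). There it passed as higher as deposited (1.11 and 0.84) and with length and GC trends removed (1.31 and 1.20), and as lower without glucose when centred after the log (-1.07).

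EIF3D, the tagged CK2 substrate, had 43.4 ± 9.80 RPKM in input and 264 ± 74.8 in the IP of complete medium, and 34.6 ± 0.511 and 171 ± 34.8 without glucose (SD, n = 2). Transgene and endogenous reads were not separated. It rose in the complete IP (0.90 ± 0.33, limma adjusted p = 0.0423) and had -0.51 ± 0.33 without glucose (adjusted p = 0.213), a value that turned positive when RPKM was used as deposited (2.26), quantile-normalized (2.19), centred after the log (0.34) or scaled to the protein-coding sum (1.85). The difference between media did not pass (-1.41, adjusted p = 0.109).

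Other CK2 substrates were set beside the subunits, with members of each list chosen from textbook knowledge. Over all tested genes 30% rose and 29.9% fell in the complete IP, and 27.6% rose and 32.2% fell without glucose. With RPKM as deposited the median gene itself had 1.11 and 1.58, so counts on that scale include this shift. Of 10 translation factors and ribosomal stalk proteins that CK2 phosphorylates, 1 rose and 5 fell in the complete IP, and 0 rose and 7 fell without glucose, with median log2 changes of -1.68 and -1.65 against 0.03 and -0.02 over all genes. RPLP1, an acidic protein of the ribosomal stalk, fell by 6.51 and 5.21 on the log2 scale (limma adjusted p = 3.48e-05 and 7.68e-05), and was lower under every scaling tried. EIF5, the GTPase activator of initiation, had 0.996 and -0.43 and did not pass in either medium (adjusted p = 0.128 and 0.502). With RPKM as deposited 5 of these 10 rose and 5 fell in complete medium, and 6 rose and 3 fell without glucose.

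Of 17 further substrates 16 were tested. In complete medium 3 rose and 0 fell, and without glucose 1 rose and 4 fell, with medians of 0.15 and -0.02. In complete medium 14 rose and without glucose 16 rose with RPKM as deposited, and 0 fell in either, where the median gene itself had 1.11 and 1.58. With quantile normalization 9 and 6 rose and 0 fell, and centred after the log 4 rose and 0 fell in each medium. NCL, the nucleolar protein nucleolin, rose in complete medium (1.97 ± 0.52, limma adjusted p = 0.0101), and AKT1, a growth-factor kinase, rose without glucose (1.18 ± 0.21, adjusted p = 0.00129), though not once length and GC trends were removed (0.06). The complete inputs of NCL lay far apart, at 21.8 ± 19.4 RPKM against 230 ± 91.3 in the complete IPs (SD, n = 2). CDC37, the co-chaperone that brings kinases to HSP90, fell without glucose (-1.12 ± 0.30, adjusted p = 0.0111) and turned to 1.64 with RPKM as deposited and to 1.15 with quantile normalization. SSB, the La protein, had -0.53 in complete medium (adjusted p = 0.102). Of 6 tested TTT and R2TP factors, which assemble PI3K-like kinases with the help of CK2 phosphorylation of TELO2, 0 rose and 4 fell in each medium. With RPKM as deposited, where the median gene rose too, 1 of the 6 rose in complete medium and 5 without glucose, and 0 fell. RUVBL2, an ATPase of R2TP, had -2.07 and -2.53 (adjusted p = 0.000290 and 0.000106), and 0.19 without glucose as deposited, while TTI1 (-0.33, adjusted p = 0.232) and TELO2 itself (0.76 without glucose, adjusted p = 0.0615) did not pass.

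Other kinase genes showed where the subunits lay among their kind. The CK1 family shares only the historic name of casein kinase. Of 5 tested members 4 rose in complete medium and 3 without glucose, against 30% and 27.6% of all genes. The family had 0 lower and medians of 0.79 and 1.67. With RPKM as deposited all 5 rose in each medium, where the median gene itself had 1.11 and 1.58. With length and GC trends removed 2 of the 5 rose in complete medium and 4 without glucose, with medians of 0.48 and 0.996. CSNK1G3, with input means of 0.318 and 0.351 RPKM, entered the test through its IPs. CSNK1D, a kinase of the circadian clock, rose in complete medium (0.95 ± 0.23, limma adjusted p = 0.00703), and CSNK1G2, a membrane-bound isoform, without glucose (2.16 ± 0.25, adjusted p = 0.000148). CSNK1A1, which primes beta-catenin for degradation, did not pass (0.41, adjusted p = 0.0945, and -0.11, adjusted p = 0.635). In the CMGC group, to which the CK2 catalytic subunits belong, 16 of 31 tested genes rose and 5 fell in complete medium, and 11 rose and 5 fell without glucose. Some of them entered the test only through their IPs, so these counts lean towards genes high in the IP. DYRK1A, for example, averaged 0.242 and 0.0865 RPKM in the complete and glucose-free inputs, and GSK3B 0.793 and 0.294. Its medians were 0.73 and 0.24, and its range from CDK5, a neuronal kinase (-2.54 and -2.22), to HIPK2, a stress kinase of the nucleus (2.56 and 2.23), spanned the values of CSNK2A1 and CSNK2A2. With RPKM as deposited CDK5 stood at -1.13 and 0.11, and 26 genes of the group rose and 1 fell in complete medium, and 30 rose and 0 fell without glucose. With length and GC trends removed 12 rose and 5 fell, and 7 rose and 9 fell, with a median of 0.19 in each medium.

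PKA also keeps catalytic and regulatory subunits on separate mRNAs. Of its 4 tested genes 1 rose in complete medium and 0 passed without glucose by limma, where 2 had an unadjusted p under 0.05 and 2 rose by limma-voom. In RPKM as deposited 3 rose in complete medium and 4 without glucose, on the protein-coding sum 2 and 4 did, and with length and GC trends removed 1 rose and 2 fell in complete medium. PRKAR1A, a regulatory subunit, rose in complete medium (0.87 ± 0.25, limma adjusted p = 0.0156), against -0.22 without glucose (adjusted p = 0.485). Its inputs averaged 0.556 and 0.765 RPKM, so it entered the test through its IPs. PRKACA, a catalytic subunit, had -0.44 and 0.73 (adjusted p = 0.249 and 0.0714). In PP2A, a phosphatase with catalytic, scaffold and regulatory subunits, 3 of 11 rose and 1 fell in complete medium, and 2 rose and 1 fell without glucose. Beside these counts and those of PKA, 30% of all tested genes rose and 29.9% fell in complete medium. Without glucose the shares were 27.6% and 32.2%. With length and GC trends removed 2 of the 11 PP2A genes rose and 3 fell in complete medium, and 3 rose and 3 fell without glucose. On the protein-coding sum, and with RPKM as deposited, 10 rose in complete medium and 11 without glucose, and 0 fell. The median gene itself had 1.12 and 1.29 on that sum and 1.11 and 1.58 as deposited. PPP2CB, a catalytic subunit, rose (1.11 ± 0.16, adjusted p = 0.000493), PPP2R1A, the scaffold, fell (-1.78 ± 0.33, adjusted p = 0.00169) in complete medium, and PPP2R5B, a regulatory subunit, rose without glucose (1.46 ± 0.24, adjusted p = 0.000845). PPP2CB, with input means of 0.271 and 0.485 RPKM, also entered the test through its IPs. So did PPP2R5B, with input means of 1.01 and 0.419 RPKM in complete and glucose-free medium against 7.09 and 12.7 in the IPs. Its call without glucose therefore rests on values that helped to admit it. PPP2R1A had -0.26 with RPKM as deposited and no longer passed. The difference between the CK2 subunits and any of these groups was not tested.

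**Figure D4:**
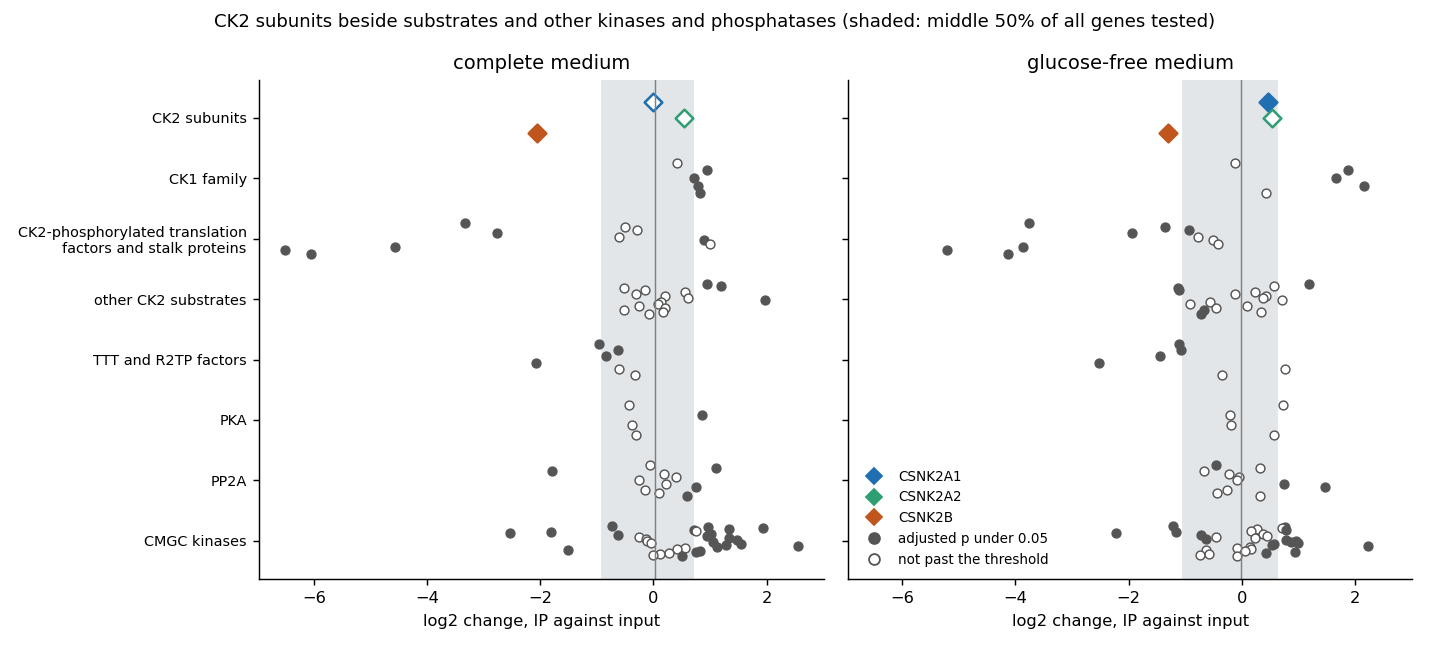
Log2 change in IP against input for the CK2 subunit mRNAs (diamonds) and for each tested gene of 7 groups (circles), in complete (left) and glucose-free medium (right), filled where the limma adjusted p was under 0.05, with the middle 50% of all tested genes shaded. CSNK2B (-2.05 and -1.30) lay below the shaded band in each medium, the second value turning to 1.10 with RPKM as deposited, and CSNK2A1 and CSNK2A2 lay inside it.

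By pattern over the 8 libraries, the genes most like each member were found among tested nuclear protein-coding genes, by the root mean square difference of values centred on each gene's mean. For CSNK2A1 they were BCL6B (0.06), LRRC58 (0.10) and SNX11 (0.11). For CSNK2A2 they were SECISBP2 (0.07), ZNF639 (0.07) and UBE3A (0.08). For CSNK2B they were PPIAL4C (0.23), BCCIP (0.26) and NUTF2 (0.26), all farther than those of the other subunits. PPIAL4C belongs to a family of near-identical copies of PPIA, so its values are uncertain. CSNK2A1 and CSNK2A2 stood 0.24 from each other, and CSNK2B stood 0.98 from CSNK2A1 and 1.15 from CSNK2A2. These distances use scaled log2(RPKM + 1), which understates changes of low genes such as CSNK2A1, and were not computed on other scales. With length and GC trends removed the mean IP minus input difference was -1.29 for CSNK2A1 to CSNK2A2. It was 0.26 for CSNK2A1 to CSNK2B and 1.55 for CSNK2A2 to CSNK2B.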

How the data were processed

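RNA was measured in 8 libraries of 4 groups (input and IP in each medium, n = 2). The authors deposited RPKM, in a table for each medium. The tools named in the submitters' processing notes are cutadapt, HISAT2 and SAMtools, with the build GRCh38. The counter, its annotation, its use of strand and all versions are not given in the sources used. Multiplied by GENCODE release 29 exon lengths, 97.5% to 98.0% of a library's low RPKM values (up to 50 reads) became whole reads within 0.02, and 97.2% of tested genes came out whole in all 8 libraries. The test took the 10100 genes (8318 nuclear protein-coding) whose RPKM averaged 1 or more across libraries. Each library was scaled to 1 median RPKM, log2(value + 1) was fitted with limma 3.58.1 (R 4.3.3, intensity trend, 4 groups in 1 model), and p-values were adjusted by Benjamini-Hochberg over all tested genes. The alternatives were limma-voom on recovered reads, other scalings, a pseudocount of 0.25, no filter, removed length and GC trends, a replicate block, the compared libraries alone and each library left out. With 2 libraries against 2, an exact permutation test of 1 gene cannot go below p = 0.333. The members and gene lists were chosen with earlier results of these data known. The text names the members in every comparison, EIF3D, the gene with the largest and the smallest change of each list in each IP against input comparison, and the 3 genes most like each member.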

Additional observations from a re-analysis of the deposited data

Results flagged for a closer look

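CDK13, a transcription elongation kinase of the CMGC group, was singled out because its IP to input change differed between media by limma's interaction term (glucose-free minus complete -1.07 ± 0.24 on the log2 scale, adjusted p = 0.0416). It rose in the complete IP (1.33 ± 0.17, limma adjusted p = 0.000228), from 0.427 ± 0.226 to 6.20 ± 1.07 RPKM (SD, n = 2), and had 0.26 ± 0.17 without glucose (adjusted p = 0.208), from 0.134 ± 0.00539 to 1.62 ± 0.179 RPKM. Both input means lay under the 1 RPKM required over all libraries. CDK13 therefore entered the test through its IPs, mainly the complete ones, and both calls rest on the values that admitted it. By limma-voom on recovered reads the difference was -1.46 (adjusted p = 0.0995), and with length and GC trends removed it was -0.22 (adjusted p = 0.511). CDK13 was the only listed gene and no CK2 subunit was past the threshold for this difference in the limma fit on scaled RPKM.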

How the results depend on the processing

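Of the results for the members and the counts of calls, 307 kept their direction and side of the threshold under an alternative (counts within 1.5 times), 27 newly passed, 10 no longer passed, 19 turned in sign and 29 counts or ratios moved. In IP against input in complete medium, CSNK2A1 (0.0013) turned to -0.35 when centred after the log, -0.085 with quantile normalization, -1.64 with length and GC trends removed and -0.041 by limma-voom, and passed at 0.86 as deposited and 0.88 scaled to the protein-coding sum. CSNK2A2 passed there at 0.71 centred, 1.92 as deposited, 0.79 quantile-normalized and 1.93 on the protein-coding sum, and CSNK2B missed at -0.61 as deposited and -0.63 on that sum. Without glucose CSNK2A1 turned to -0.12 centred and -0.20 with trends removed and missed at 0.20 quantile-normalized and 0.46 without the filter. CSNK2A2 passed at 0.92 centred, 2.83 as deposited, 0.88 quantile-normalized, 2.47 on the sum, 0.54 with only the libraries compared and 0.56 with trends removed. CSNK2B missed at -0.82 centred and -0.80 quantile-normalized and turned to 1.10 as deposited and 0.74 on the sum. In the ratio difference CSNK2A1 passed at 0.94 as deposited and 1.44 with trends removed, CSNK2B passed at 1.71 as deposited, and CSNK2A2 turned to -0.0053 with a pseudocount of 0.25. Between inputs CSNK2A1 turned to 0.032 centred, CSNK2A2 turned to -0.31 as deposited and -0.37 on the sum, and CSNK2B passed at -1.20 and -1.28. Between IPs CSNK2A1 passed at 0.56 as deposited and 1.30 with trends removed, and CSNK2A2 at 0.49 with trends removed. The cause of these changes was not tested. The ratio difference called 508 genes, against 1491 centred, 3270 as deposited (2959 higher), 1563 quantile-normalized, 1459 on the sum (1134 higher), 282 with the smaller pseudocount, 124 without the filter (12 higher) and 164 by limma-voom. Between inputs 3437 became 1275 centred (882 higher), 1828 as deposited (517 higher), 1761 quantile-normalized and 2034 on the sum (501 higher).

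With each library left out in turn, IP against input in complete medium ranged from -0.14 to 0.14 for CSNK2A1 and 0.30 to 0.77 for CSNK2A2, and without glucose from 0.39 to 0.54 and 0.50 to 0.58. In the ratio difference CSNK2A2 ranged from -0.23 to 0.24, between inputs CSNK2B from -0.69 to -0.49, and between IPs CSNK2B from -0.31 to 0.63. Calls ranged from 71 to 2660 in the ratio difference, 1041 to 4641 between inputs and 1565 to 5014 between IPs. A lone remaining library was assumed to vary like the other groups.

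Replicates with the same number did not deviate together (r = -0.0965 to 0.135). These correlations cannot show whether such libraries came from the same culture, which the labels do not give. With the replicate block the members' calls did not change: CSNK2B had -2.05 and -1.30 (limma adjusted p = 0.000595 and 0.00611), CSNK2A1 0.46 without glucose (adjusted p = 0.0450), and the ratio difference called 479 genes. The paired exact permutation p of the ratios to CSNK2B was then 0.125. With 1 added to the RPKM as deposited, the log2 differences of the ratios of CSNK2A1 and CSNK2A2 to CSNK2B were 1.08 and 2.13 and that of CSNK2A1 to CSNK2A2 was -1.05 (exact p = 0.0556). Taken from scaled log2(RPKM + 1) values, chosen after seeing the data, the first pair were 1.91 and 2.21, and with length and GC trends also removed the 3 were 0.26 (exact p = 0.444), 1.55 and -1.29 (exact p = 0.0556 for each). With only the libraries compared, the ratio difference gave no value of its own.

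With 2 libraries per group, modest changes of a member can be missed, and CSNK2A1 in the inputs and CSNK2B in the glucose-free IPs rested on 240 to 489 and 210 to 359 reads. CSNK2A1 depends on an exon union of 29523 bases, and IP values have no background.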

Other observations

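The groups of genes set beside the subunits also differed between the IPs of the media, where 21.1% of all tested genes were higher and 20.1% lower without glucose. Of the 31 tested CMGC kinases 2 were higher and 11 lower, with a median log2 change of -0.60 against 0.05 over all genes. Some, such as DYRK1A, entered the test through IPs that were higher in complete medium (5.63 against 2.81 RPKM). Of the 10 translation factors and stalk proteins 5 were higher and 1 lower, with a median of 1.03. RPLP2, a stalk protein, rose by 3.07 (limma adjusted p = 0.00331), and CDK12, a transcription elongation kinase, fell by 2.35 (adjusted p = 0.00116), both chosen after their values were seen. With RPKM as deposited 3 CMGC kinases were higher and 9 lower, and 6 genes of the translation group were higher and 0 lower. After removal of length and GC trends these counts were 3 and 11, and 5 and 1. The median of all genes moved to 0.35 with RPKM as deposited.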
